A study of Sus scrofa with 24 samples.

Results

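The 9 complement genes C3, C5, C6, C7, CFB, C1QA, C1QB, C1QC and CFP were followed across the Liver, the Spleen, a jejunum section holding a Peyer's patch (Peyer) and a jejunum section without one (Jejunum) of the same pigs. A gene was included when the array's own gene name or the symbol in its description equalled one of these 9 names. They carried 22 probes, and all 9 were among the 10726 named genes tested. The study took these 4 tissues from each of 6 crossbred piglets, numbered 68, 69, 70, 71, 73 and 75, which gave 24 one-colour microarrays and 6 arrays per tissue. The animals were weaned at day 28, fed freely and killed at 10 weeks of age, and none received a treatment that the labels name. Every tissue therefore came from the same untreated animals, and the 4 groups differed in tissue alone as far as the labels go. The arrays lay on 6 slides, divided between the tissues as given below, and were scanned on 2 days. Each array was hybridised with Cy3-labelled RNA made from 200 ng of total RNA of whole frozen tissue.

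Complement is a set of plasma and membrane proteins that tag microbes and lyse membranes. C1q binds antibody on a surface and starts the classical route, the lectins start a second route, and factor B with properdin drives the alternative route. All routes meet at the cleavage of C3, and C5, C6, C7, C8 and C9 then build the membrane attack complex. Hepatocytes are the main source of most circulating components, whereas C1q and properdin are known products of myeloid cells, C1q of macrophages and properdin of neutrophils and monocytes among others.

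The probes below stand for the genes whose tissue pattern is described here, so that the measured stretch of each transcript can be seen. Each is the 60-base sequence printed in the deposited scanner files for the probe that represents the gene, namely the one with the highest mean over the 24 arrays. The C1QA probe is not shown. C5, C6 and CFP are left out because their representing probes held a stop codon in every forward frame and may lie outside the coding region.
C3: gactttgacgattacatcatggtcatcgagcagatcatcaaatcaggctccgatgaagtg
CFB: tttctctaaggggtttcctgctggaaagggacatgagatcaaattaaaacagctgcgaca
C7: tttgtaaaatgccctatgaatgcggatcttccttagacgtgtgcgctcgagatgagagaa
C1QB: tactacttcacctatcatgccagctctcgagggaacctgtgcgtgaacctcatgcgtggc
C1QC: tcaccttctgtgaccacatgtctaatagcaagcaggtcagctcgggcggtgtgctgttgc

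C3 had 6 probes. Of these, 1 pair had the same sequence under different names and another pair overlapped. The identical pair shows the error of the measurement itself, since its spots differed by at most 0.13 on the log2 scale on any of the 24 arrays. The overlapping pair is printed with the shared run of 39 bases in capitals, and its members are not independent probes.
C3 identical pair: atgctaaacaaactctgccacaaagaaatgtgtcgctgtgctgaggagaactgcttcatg
C3 overlapping probe, first: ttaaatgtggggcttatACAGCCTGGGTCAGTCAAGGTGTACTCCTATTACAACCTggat
C3 overlapping probe, second: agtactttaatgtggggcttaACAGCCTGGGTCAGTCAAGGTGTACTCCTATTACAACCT

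A level is the log2 of a probe's processed signal minus the log2 of its array's 75th percentile, so a level of 0 lies at that percentile and a difference of 1 is a 2-fold change. Levels are read across tissues for one gene and are not set against those of another gene, because probes differ in brightness. The 75th percentile of signal ran between 275.4 and 2261.9 over the arrays, and 60.4% to 75.6% of probes were well above background. Each of the 9 representing probes exceeded background clearly on every one of the 24 arrays, and none was saturated. The Liver and Spleen arrays shared slides 1 to 3, and the Peyer and Jejunum arrays shared slides 4 to 6, so tissue and slide set cannot be told apart in any comparison of Liver or Spleen with the jejunum. The tissues carried the markers of their labels: the mean level of 11 hepatocyte markers was 8.65 in Liver and below 0 on every array of the other tissues, and 6 enterocyte markers averaged 5.14 in Peyer and 6.34 in Jejunum. The Peyer array of animal 71 had a B cell marker mean of -1.51, against a median of 1.82 over the 6 Peyer arrays, so it stood apart from its group. P-values rest on the spread between animals within a tissue, pooled over the 4 tissues. The main fit held no term for animal, so it did not use the pairing of tissues by animal.

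**Figure D1:**
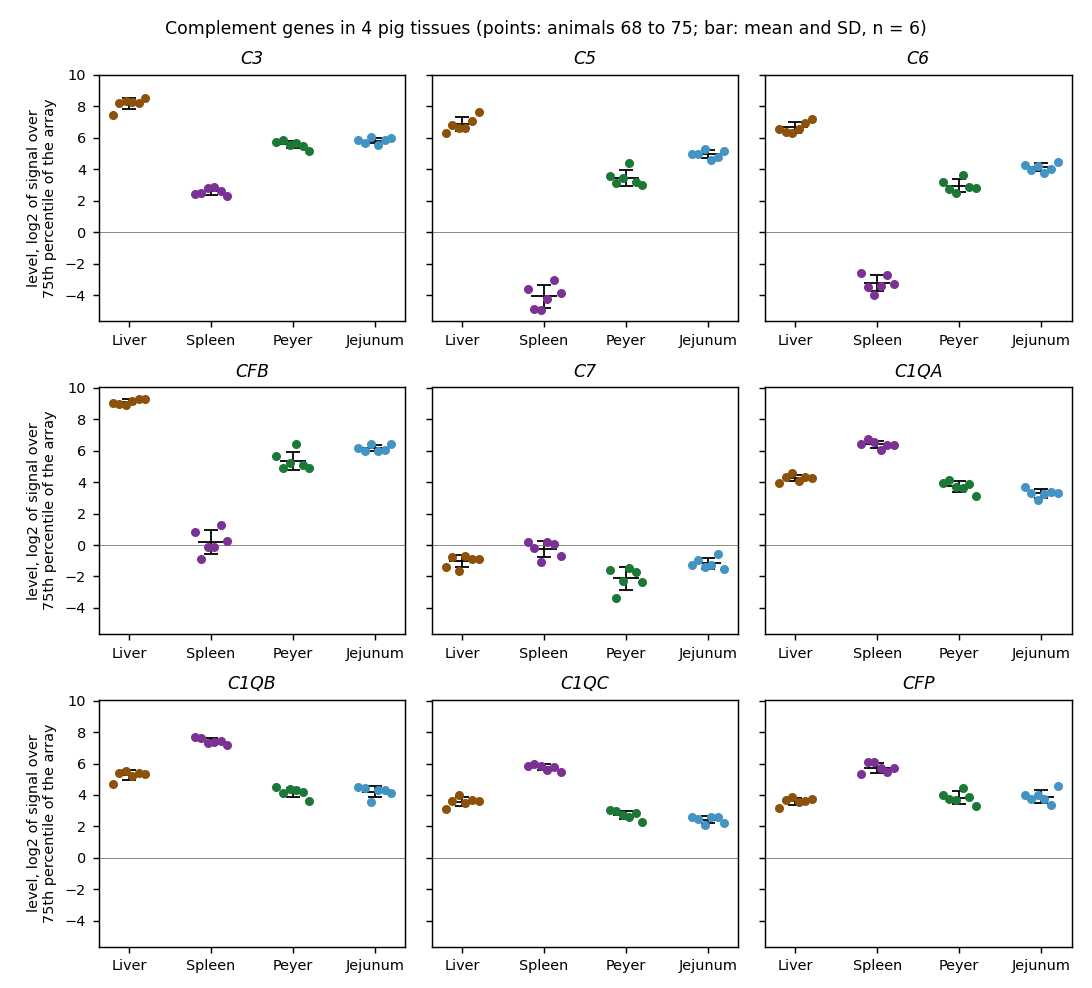
Level of each complement gene (log2 of signal over the array's 75th percentile) in the 4 tissues. Points are the 6 animals, ordered by number within a tissue, and the bar is the mean with its SD. C3, C5, C6 and CFB are highest in Liver and lowest in Spleen, and C1QA, C1QB, C1QC and CFP are highest in Spleen.

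The liver components and the myeloid components ran in opposite directions between Liver and Spleen. In Liver, C3, C5, C6 and CFB were higher, and C1QA, C1QB, C1QC and CFP were lower, than in Spleen. A gene was called when limma gave an adjusted p under 0.05, by Benjamini-Hochberg over 42650 probes, and the difference was at least 2-fold. By that rule 8 of the 9 genes were called, 4 in each direction, against 38.7% of all named genes called in either direction, 18% higher and 20.7% lower. The 6 Liver arrays lay wholly above the 6 Spleen arrays for 4 genes, as for 22.2% of all named genes, and wholly below them for another 4, as for 27.7%. These tissues shared slides. With no overlap between the arrays, the direction of these 8 genes had to be the same on each of the 3 slides, so that adds no separate support. Whole tissue was measured, so fewer cells of a type and less RNA per cell cannot be told apart in any of these values.

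C3 is the protein on which all routes converge. Its level in Liver had a lowest value of 7.45, a median of 8.27 and a highest value of 8.5. In Spleen the lowest was 2.29, the median 2.55 and the highest 2.89. In Peyer the 3 values were 5.19, 5.57 and 5.87, and in Jejunum they were 5.56, 5.84 and 6.02. No Liver array overlapped any other tissue, no Spleen array did either, and the 2 jejunal tissues overlapped each other. C3 was 5.58 ± 0.15 higher in Liver than in Spleen on the log2 scale (SE of the limma fit, n = 6 each, adjusted p = 4e-19), a 47.9-fold difference. Liver exceeded Peyer by 2.6 and Jejunum by 2.36. Spleen was lower than Peyer by a difference of -2.98 and lower than Jejunum by one of -3.23.

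CFB encodes factor B, the protease precursor of the alternative-route C3 convertase. Its Liver level lay between 8.93 and 9.31 with a median of 9.09. In Spleen it lay between -0.89 and 1.28 with a median of 0.09. The Peyer range was 4.88 to 6.42 with a median of 5.13, and the Jejunum range was 5.99 to 6.42 with a median of 6.09. Liver and Spleen each stood clear of all other tissues, while 1 Peyer array, that of animal 71, lay at the top of the Jejunum values. Liver minus Spleen was 8.91 ± 0.28 (limma SE, adjusted p = 3e-18), and Spleen minus Jejunum was -5.96 ± 0.28 (limma SE, adjusted p = 1e-14). The SD among animals was 0.16 in Liver and 0.76 in Spleen.

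C5 is cleaved to the inflammatory peptide C5a and to the fragment that seeds the membrane attack complex. It ran from 6.31 to 7.62 in Liver (median 6.74) and from -4.94 to -3.02 in Spleen (median -4.03). In Peyer it ran from 2.98 to 4.42 (median 3.33) and in Jejunum from 4.58 to 5.27 (median 4.97). No pair of tissues overlapped. Liver minus Spleen was 10.94 ± 0.29 (limma SE, adjusted p = 2.1e-19), a 1970-fold difference in signal, and 8.28 with the second C5 probe. Jejunum also exceeded Spleen by far, with Spleen minus Jejunum at -9.05 ± 0.29 (limma SE, adjusted p = 2.1e-17).

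C6, which joins C5b in the attack complex, followed the same order. Its Liver levels were 6.32 to 7.2 with a median of 6.57, and its Spleen levels were -3.98 to -2.63 with a median of -3.34. The Peyer levels were 2.51 to 3.66 (median 2.84) and the Jejunum levels 3.77 to 4.49 (median 4.12). Again no pair of tissues overlapped. C6 was 9.92 ± 0.22 higher in Liver than in Spleen (limma SE, adjusted p = 1.6e-20) and 2.54 ± 0.22 higher in Liver than in Jejunum (limma SE, adjusted p = 4.9e-10).

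Hepatocyte markers were not at one level in the Spleen arrays. The mean over the 11 markers was -0.25 in the Spleen of animal 68 and -4.52 in that of animal 70, where the Liver arrays held 8.55 to 8.84. The Spleen of animal 68 had levels of -3.64 for C5, -2.63 for C6 and 0.8 for CFB. The Spleen of animal 70 had levels of -4.94, -3.98 and -0.12 for the same genes. C3 ran the other way, at 2.42 in the Spleen of animal 68 and 2.83 in that of animal 70. The highest Spleen levels of C5 and CFB were those of animal 73, -3.02 and 1.28, beside a hepatocyte marker mean of -3.29. That array also had the highest enterocyte marker mean of the Spleen arrays, -1.85, against a median of -5.26. The part of liver or intestinal RNA in these Spleen levels was not tested.

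C7, the next protein of the attack complex, did not share the pattern of C5 and C6. Its Liver levels were -1.63 to -0.67 (median -0.89), its Spleen levels -1.08 to 0.21 (median -0.05), its Peyer levels -3.37 to -1.45 (median -2.01) and its Jejunum levels -1.53 to -0.58 (median -1.29). The order of means was Spleen, Liver, Jejunum, Peyer on this scaling, and neighbours in that order overlapped. Spleen minus Peyer was 1.88 ± 0.28 (limma SE, adjusted p = 7.4e-06) with no overlap between the arrays, but 0.69 and not called on the authors' deposited normalized table. On that table Liver minus Jejunum was -0.7 and Spleen minus Jejunum -0.05, where the scanner signals gave 0.14 and 0.93. The authors' table holds almost no difference between slide sets, so it cannot decide the order of C7 across them. Liver minus Spleen was -0.79 ± 0.28, with the Liver lower in 6 of 6 animals, and missed the 2-fold limit (limma adjusted p = 0.018). The second C7 probe gave -1.02 for that comparison and 1.02 for Spleen minus Jejunum, both called. Liver minus Peyer was 1.09 ± 0.28 (limma adjusted p = 0.0016) and was called in 12 of the 18 alternative settings that use the same limits. It missed that limit at 0.78 without animal 69, at 0.8 with the second probe and at 0.04 on the authors' table, and also with median scaling (0.94), quantile normalization (0.99) and array weights (0.88). In the RefSeq pig annotation (Sscrofa11.1) C7 and C6 lie next but one to each other, with MROH2B between them.

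**Figure D2:**
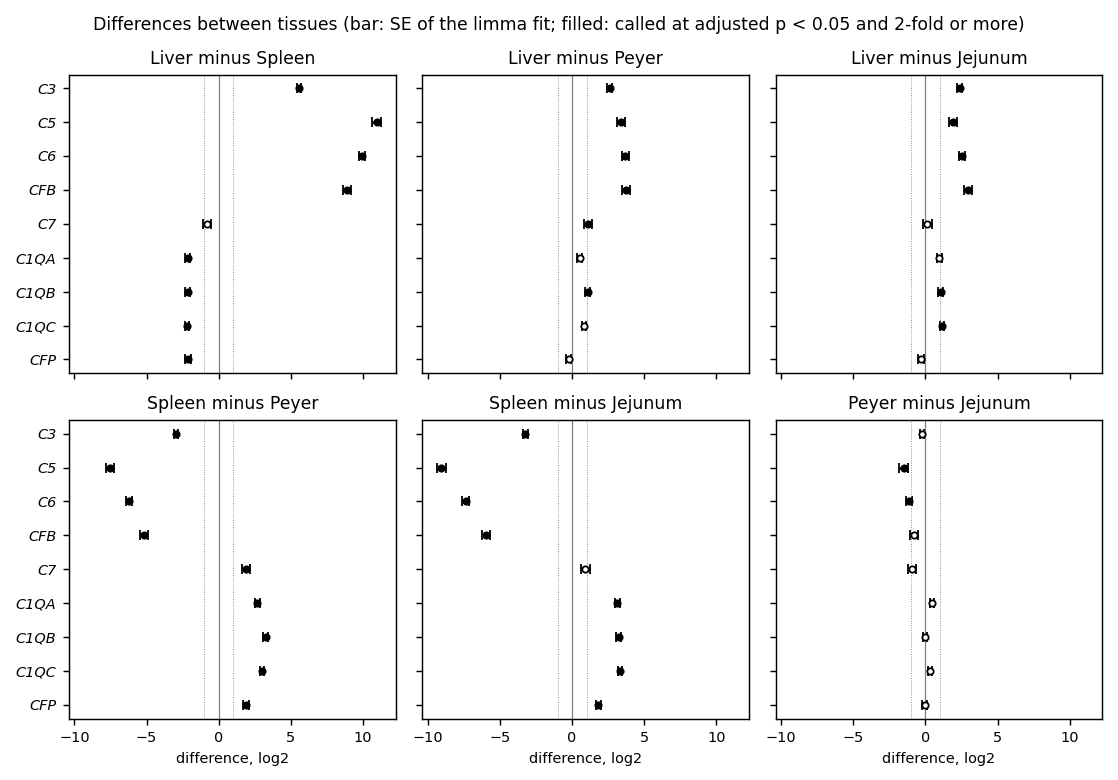
Difference between tissues on the log2 scale for each gene in the 6 comparisons, the first-named tissue minus the second, with the SE of the limma fit as the bar. Filled points passed adjusted p under 0.05 and at least 2-fold, and dotted lines mark 2-fold. C5, C6 and CFB span from 10.94 for C5 in Liver minus Spleen to -9.05 for C5 in Spleen minus Jejunum, while the C1q chains and CFP stay between -2.18 and 3.33.

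The 3 C1q chains, which assemble into 1 hexameric recognition protein, moved together. C1QA ran from 3.97 to 4.55 in Liver (median 4.28), from 6.05 to 6.72 in Spleen (median 6.39), from 3.12 to 4.15 in Peyer (median 3.76) and from 2.85 to 3.68 in Jejunum (median 3.3). C1QB ran from 4.72 to 5.55 in Liver (median 5.37), from 7.15 to 7.69 in Spleen (median 7.4), from 3.63 to 4.48 in Peyer (median 4.24) and from 3.56 to 4.49 in Jejunum (median 4.32). Every Spleen array lay above every array of the other tissues for both chains. C1QC ran from 3.08 to 4 in Liver (median 3.62), from 5.47 to 5.99 in Spleen (median 5.81), from 2.27 to 3.03 in Peyer (median 2.78) and from 2.06 to 2.62 in Jejunum (median 2.54). Spleen stood clear again, and for C1QB and C1QC the Liver arrays also lay above all jejunal arrays on this scaling.

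Liver minus Spleen was -2.16 ± 0.16 for C1QA, -2.15 ± 0.17 for C1QB and -2.18 ± 0.15 for C1QC (limma SE), a 4.45-fold to 4.54-fold lower signal in Liver. The limma adjusted p was 2.2e-11, 6.9e-11 and 8e-12 in the same order of chains. Over the 24 arrays, after each gene's own mean was removed, C1QC differed from C1QA by a root mean square of 0.19 and from C1QB by 0.19, and C1QA differed from C1QB by 0.31. RefSeq lists C1QA, C1QC and C1QB as direct neighbours in that order. In Peyer against Jejunum no chain was called: the difference was 0.45 ± 0.16 for C1QA, -0.03 ± 0.17 for C1QB and 0.31 ± 0.15 for C1QC (limma SE).

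CFP encodes properdin, which stabilises the alternative-route convertase. Its levels were 3.19 to 3.87 in Liver (median 3.64), 5.31 to 6.11 in Spleen (median 5.71), 3.28 to 4.45 in Peyer (median 3.8) and 3.35 to 4.56 in Jejunum (median 3.87). Spleen stood clear, and the other 3 tissues overlapped one another. Liver minus Spleen was -2.12 ± 0.2 (limma SE, adjusted p = 1.2e-09). Liver minus Peyer was -0.24 ± 0.2 and Liver minus Jejunum -0.3 ± 0.2, neither of which was called.

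Macrophage markers did not all share the direction of C1q between Liver and Spleen. Of 14 markers measured, 3 were higher in Liver, 7 were lower and 4 were not called, and their mean level was 1.92 in Liver and 1.98 in Spleen. Of all named genes 18% were called higher and 20.7% lower in Liver. CSF1R, the receptor for macrophage colony-stimulating factor, differed by -2.69, AIF1, a cytoskeletal protein of macrophages, by -2.22 and CTSS, a lysosomal protease, by -1.97. VSIG4, a complement receptor of Kupffer cells, differed by 4.49, and MRC1, the mannose receptor, by 3.93. CD163, the haemoglobin scavenger receptor, differed by -0.04 and CD5L by 0.56, and neither was called. Neutrophil markers, of which 6 were measured, had a mean level of -1.49 in Liver and -0.14 in Spleen, and 4 of the 6 were lower in Liver. The part of cell number in the C1q and CFP differences was not tested.

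**Figure D3:**
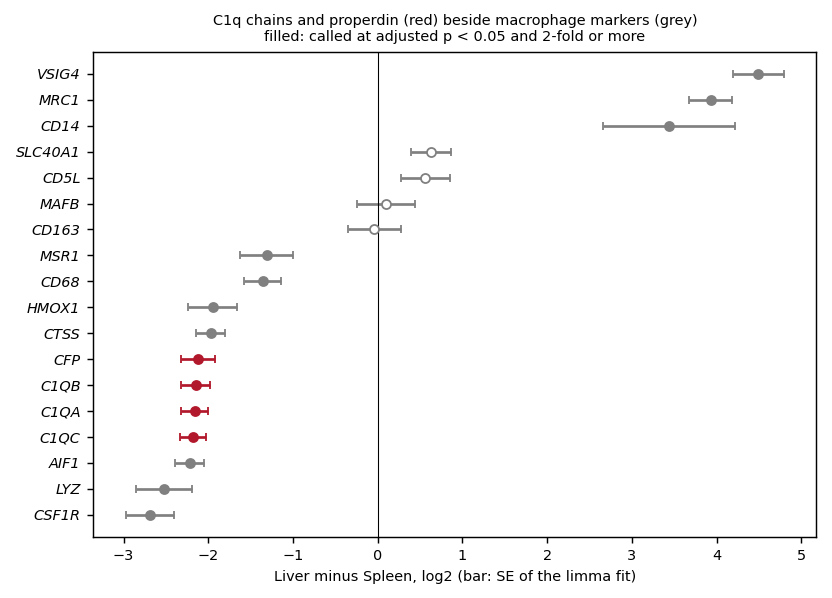
Liver minus Spleen on the log2 scale for the 3 C1q chains and CFP (red) and for 14 macrophage markers (grey), with the SE of the limma fit. The 4 complement genes lie between -2.18 and -2.12, near CTSS at -1.97 and AIF1 at -2.22, while VSIG4 lies at 4.49.

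In the comparisons that cross the slide sets, 6 of the 9 genes were called higher and none lower in Liver against Peyer, where 40.3% of named genes were called, 21.2% higher and 19% lower. The same counts, 6 and 0, held in Liver against Jejunum, where 33.2% were called, 16% higher and 17.2% lower. No gene was lower in Liver in either at an adjusted p under 0.05 by limma, and at an unadjusted p under 0.05 none was either. For Liver against Peyer the arrays of 6 genes lay wholly above (25.7% of named genes) and of 0 wholly below (21.9%), and for Liver against Jejunum those of 7 lay above (24.8%) and of 0 below (23.8%). In Spleen against Peyer all 9 were called, 5 higher and 4 lower, against 25.1% of named genes, 14.7% higher and 10.4% lower. All 9 were also free of overlap, 5 above (17.7% of named genes) and 4 below (13.1%). In Spleen against Jejunum 8 were called, 4 higher and 4 lower, against 30.4%, 15.1% higher and 15.3% lower. In that comparison 4 lay wholly above (24.7%) and 4 wholly below (20.2%).

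The C1q part of this depended on how the arrays were scaled between slide sets. In the authors' deposited normalized log2 table, the difference between the mean of Liver and Spleen and the mean of Peyer and Jejunum had a median size of 0.06 over 44600 probes, where the scanner signals gave 0.5. On that table Liver minus Peyer was -1.68 for C1QA, -1.56 for C1QB and -1.53 for C1QC, against 0.52, 1.1 and 0.84 from the scanner signals. Liver minus Jejunum was -1.17, -1.46 and -1.14 for the same chains on the authors' table, against 0.97, 1.07 and 1.15 from the scanner signals. That table holds almost no difference between slide sets (for C1QB -0.31, against 2.16 from the scanner signals), so it cannot decide this sign. Tissue and slide set cannot be told apart here, and the sign of the C1q difference between Liver and the jejunum is not settled by these arrays. The authors' table also gave a lower CFP in Liver, by -1.38 against Peyer and -1.39 against Jejunum. C3, C5, C6 and CFB had the same order on it: Liver minus Jejunum was 2.21 for C3, 3.91 for C5, 3.71 for C6 and 3.37 for CFB. Spleen minus Jejunum was -3.01 for C3, -5.76 for C5, -5.2 for C6 and -4.92 for CFB on that table. Spleen stayed above Peyer there for C1QA at 0.72, C1QB at 0.85 and C1QC at 0.89, all under the 2-fold limit. For C5 the difference between slide sets was -0.17 on that table, against -2.82 from the scanner signals. With almost no difference between slide sets, a gene well apart in Liver and Spleen falls on either side of the jejunum. The order of these genes on that table therefore adds no separate support.

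The jejunum with a Peyer's patch had less C5 and C6 signal than the jejunum without. These tissues shared slides. Of the 9 genes, 2 were called, both lower in Peyer, against 13.1% of named genes called in either direction, 5.88% higher and 7.23% lower. Their 6 Peyer arrays lay wholly below the 6 Jejunum arrays, as for 5.81% of named genes, and no gene's lay wholly above, as for 5.25%. C5 differed by -1.51 ± 0.29 (limma SE, adjusted p = 0.00042) and C6 by -1.16 ± 0.22 (limma SE, adjusted p = 0.00036), each lower in Peyer in 6 of 6 animals. On single slides the difference was between -1.9 and -0.98 for C5 and between -1.42 and -0.91 for C6. CFB at -0.82 ± 0.28 (limma adjusted p = 0.022) and C7 at -0.95 ± 0.28 (limma adjusted p = 0.011) missed the 2-fold limit, and C3 at -0.24 ± 0.15 was not called. With each array scaled by its median, C6 differed by -0.98 and was not called.

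**Figure D4:**
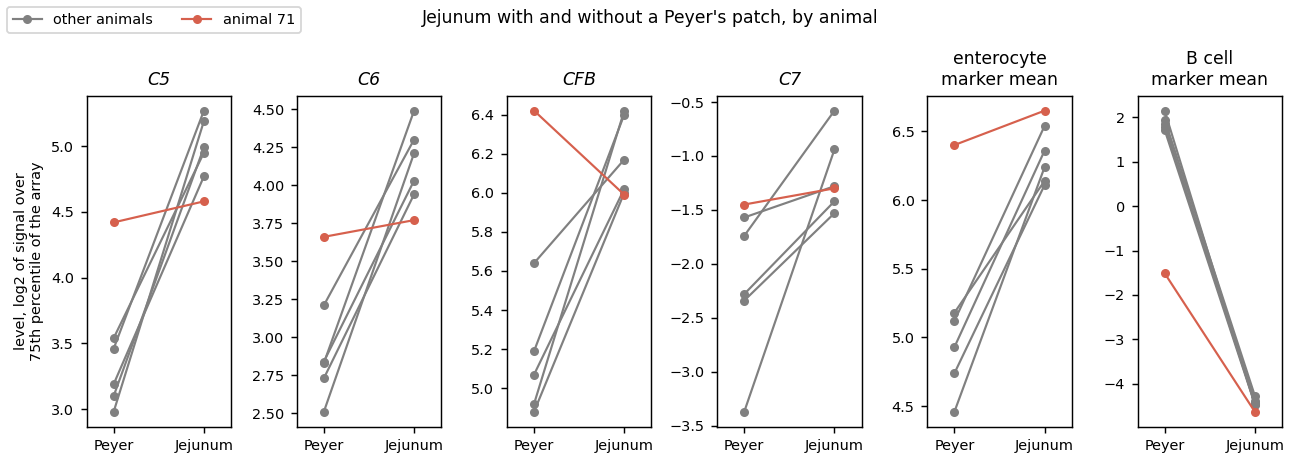
Level of C5, C6, CFB and C7, and mean level of 6 enterocyte and 6 B cell markers, in Peyer (left) and Jejunum (right) of each animal, joined by a line. The vertical axis is log2 of signal over the array's 75th percentile and differs between panels. Animal 71 (red) has the highest Peyer value of the 4 genes and of the enterocyte markers, and the lowest of the B cell markers.

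The Peyer array of animal 71 held a C5 level of 4.42, where the other Peyer arrays held 2.98 to 3.54. Its C6 level was 3.66, against 2.51 to 3.21 in the other Peyer arrays, and its CFB level was 6.42, against 4.88 to 5.64. It was also the highest Peyer array for C7 and CFP, but not for C3 or any C1q chain. The enterocyte marker mean was 6.4 on this array and 4.46 to 5.18 on the other Peyer arrays, while the 6 Jejunum arrays held 6.11 to 6.65. Without it, 4 of the 9 genes were called lower in Peyer: CFB differed by -1.03 (limma adjusted p = 0.0022) and C7 by -1.09 (limma adjusted p = 0.0037), besides C5 and C6. Calls rose in general: among 10726 named genes 1162 were then lower and 813 higher, against 775 and 631 with that array. Over all 6 animals the 6 enterocyte markers had 2 lower in Peyer and 4 not called, and the 6 B cell markers were all higher in Peyer. Among all named genes 7.23% were lower and 5.88% higher there. The part of epithelial content in the C5 and C6 differences was not tested.

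In limma's F-test of animal beside tissue 0 of 9 were called at an adjusted p under 0.05, against 4.21% of named genes, a count close to that background, and 0 of 9 had an unadjusted p under 0.05. C7 came nearest, with an adjusted p of 0.31 and an unadjusted p of 0.083.

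The rest of the complement system gave 38 measured genes of 52 listed. In Liver against Spleen 24 were higher, 7 lower and 7 not called, with a median difference of 2.82 where all named genes had -0.1. Of all named genes 18% were higher and 20.7% lower in that comparison. A gene measured well above background on all arrays of a single tissue was still tested, and its direction was then bound to favour that tissue. MBL1, MBL2, C8A, C8B and LRP1 entered in this way through Liver and are among the 24. In Peyer against Jejunum 7 were higher, 4 lower and 27 not called, against 5.88% of named genes higher and 7.23% lower. The list was drawn from textbook membership of the pathway.

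The classical proteases C1R and C1S, which are carried by C1q, went the other way from the C1q chains between Liver and Spleen. C1R was 2.31 ± 0.11 and C1S 3.16 ± 0.13 higher in Liver (limma SE), beside -2.18 to -2.15 for the chains of C1q. Their substrates C2 and C4A rose as well, by 3.48 ± 0.22 and 3.47 ± 0.23 (limma SE), so that all 4 measured genes of the group were higher in Liver. The share of all named genes higher there was 18%. C2 lies next to CFB in the RefSeq order. All 4 were also called higher in Liver than in Peyer, as were 21.2% of named genes, but 0 of the 4 were on the authors' table. That table holds almost no difference between slide sets, so it cannot decide this comparison.

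Of all named genes 18% were higher in Liver than in Spleen, 21.2% than in Peyer and 16% than in Jejunum. Of the later terminal components, C8A, C8B, C8G and C9, all 4 were higher in Liver than in each other tissue on the scanner signals. They were so on the authors' table too, but that table holds almost no difference between slide sets. A gene far higher in Liver than in Spleen tends to exceed the jejunum there, so for Peyer and Jejunum this adds no separate support. C9, the pore-forming subunit, resembled C5 and C6 in the jejunum: its level was 4.9 in Liver, -6.43 in Spleen, 1.08 in Peyer and 2.7 in Jejunum. It was well above background on all 6 Peyer and all 6 Jejunum arrays, on 1 Spleen array, and lower in Peyer than in Jejunum by a difference of -1.62 ± 0.5 (limma SE, adjusted p = 0.014). C8A, by contrast, was not well above background on any Peyer or Jejunum array, and was at least 11200-fold higher in Liver than in Peyer and at least 7680-fold higher than in Jejunum. Such a bound sets the bright tissue's mean against the dimmest signal that counts as measured. C8B was well above background on 2 Peyer and 2 Jejunum arrays. C8A and C8B entered the tests through Liver alone, so their higher level there adds no separate support.

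The lectins bind microbial sugars. In Liver against Spleen 7 of 8 measured genes of that route were higher and 1 was lower, beside 18% and 20.7% of named genes. MBL1, a mannose-binding lectin, was well above background in Liver alone, at least 388-fold higher than in Spleen. MBL1 and MBL2 entered the tests through Liver alone, so their direction adds no separate support. FCN2, a ficolin, had a level of 5.44 in Liver, 0.39 in Spleen, 6.78 in Peyer and 7.27 in Jejunum, but its Liver minus Jejunum difference of -1.83 was 1.83 on the authors' table. With almost no difference between slide sets, that table cannot decide this sign. COLEC12, a membrane collectin, was the gene lower in Liver, at -3.54 ± 0.16 (limma SE), and was well above background on 2 of 6 Liver arrays.

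CFD, the protease that activates factor B and is a known product of fat and myeloid cells, was lower in Liver than in Spleen by a difference of -2.81 ± 0.19 (limma SE, adjusted p = 3.2e-12), opposite to its substrate CFB. CFI, a plasma protease that cleaves C3b, had the order of C3, with levels of 7.56 in Liver, 1.19 in Spleen, 4.69 in Peyer and 5.56 in Jejunum. Of the 6 measured soluble inhibitors, 5 were higher in Liver than in Spleen, and C4BPA at 0.66 ± 0.23 (limma SE) was not called. The share of all named genes called higher in that comparison was 18%.

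Among genes that protect or sense host cells the directions were mixed. CD46 differed by -2.01 ± 0.38 and CD55 by -4.26 ± 0.32 between Liver and Spleen (limma SE), both lower in Liver, and the other 3 of 5 membrane inhibitors measured were not called. CD46 was well above background on 2 of 6 Liver arrays, and its difference was -0.57 with normexp background correction and -0.88 on the authors' table, neither called. Of 8 receptors measured, 2 were higher in Liver than in Spleen, 3 lower and 3 not called, with a median difference of 0.32. Among all named genes 18% were higher and 20.7% lower. VSIG4 was higher by 4.49 ± 0.3 and LRP1, a scavenger receptor, by 1.65 ± 0.27 (limma SE), with LRP1 well above background on 3 of 6 Spleen arrays. The C5a receptor C5AR1 was lower in Liver by a difference of -1.32 ± 0.2 and the integrin chain ITGB2 by -3.33 ± 0.25 (limma SE). CR2, which binds C3d and is carried by B cells as well as by follicular dendritic cells, had no Liver array well above background and was at least 30.2-fold lower there than in Spleen. In Peyer against Jejunum CR2 was higher by 8.12 ± 0.63, CD55 by 2.14 ± 0.32 and ITGB2 by 1.66 ± 0.25 (limma SE), the tissues in which all 6 B cell markers also rose. Only 1 of 6 Jejunum arrays measured CR2 well above background, so the size of its difference rests on signals near background. CR2 is itself among those B cell markers, and the part of B cells in these differences was not tested.

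**Figure D5:**
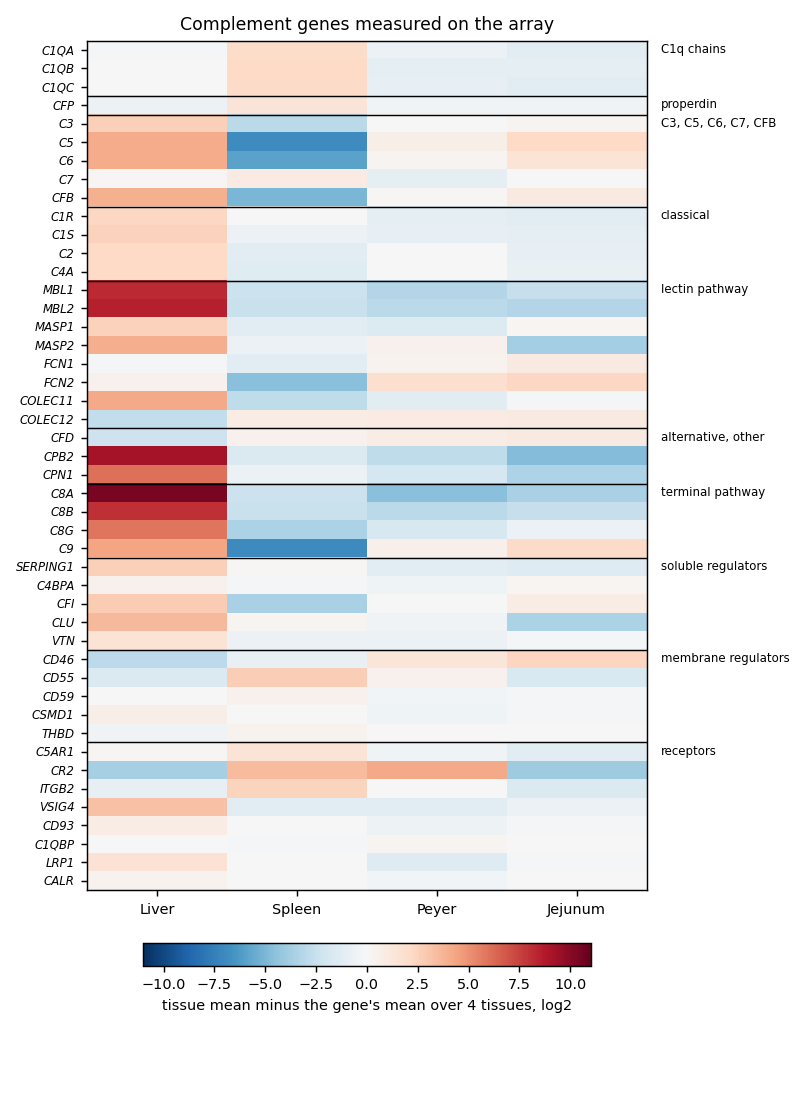
Tissue mean minus the gene's mean over the 4 tissues (log2, colour) for the 9 complement genes and other measured complement genes, grouped by role. Red is above and blue below the gene's own mean, and signals not well above background are included as measured. The C1q chains and CFP are red in Spleen, where C5, C6, CFB and C9 are blue.

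The genes whose profiles lay nearest were found among all named genes tested, by the root mean square difference over the 24 arrays after each gene's mean was removed. For C1QA they were TGFBI at 0.18, C1QC at 0.19 and AIF1 at 0.28. For C1QB they were C1QC at 0.19, FCGR3A, an antibody receptor, at 0.3 and C1QA at 0.31, and for C1QC they were C1QB at 0.19, C1QA at 0.19 and TGFBI at 0.25. Near C3 lay CTSL3 at 0.45 and MACROD1 at 0.48. C5 lay nearest NAGS at 0.51, C9 at 0.53 and OTC at 0.57, where NAGS and OTC are urea-cycle enzymes of liver and small intestine. C6 lay nearest ALDH1A1 at 0.5, SLC27A2 at 0.52 and CFB at 0.6. CFB lay nearest SEC14L2 at 0.54, C6 at 0.6 and the bile acid receptor NR1H4 at 0.61. C7 lay nearest EDNRA, the endothelin receptor, at 0.34, ZC3H11A at 0.34 and COLGALT1 at 0.37. CFP lay nearest ARRB2 at 0.35, PLVAP at 0.36 and MYO1F at 0.36. These are descriptions over arrays that share tissues and slides.

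Other probes named for the same genes differed in brightness and in the size of the difference. For C3 all 6 probes gave Liver minus Spleen between 5.58 and 6.1. A second C5 probe gave 8.28, where the representing one gave 10.94, and the other C6 probes gave 9.86 and 9.41, where the representing one gave 9.92. Those C6 probes were well above background on 4 and on 1 of 6 Spleen arrays, and the second C5 probe on 5, so these differences rest partly on signals near background. A second CFB probe gave 4.66, where the representing one gave 8.91, and only 3 of 6 Spleen arrays measured it clearly above background. The second probes of C1QA and C1QB gave -1.52 and -1.14, and that of CFP gave -2.27. On single arrays the second probes of C1QA, C1QB and CFB differed from the representing ones by up to 8.15, 8.45 and 10.85. Their strand was not checked against a transcript, so they may not measure the mRNA of these genes.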

How the data were processed

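Total RNA of 24 tissue samples was hybridised to one-colour Agilent pig arrays. Per the file headers, the scanner files hold processed intensity values per spot made with Agilent Feature Extraction 10.10.1.1. The authors deposited a second table of normalized log2 values for 44600 probes, made with limma per the submitters' processing notes, and its centring and scaling are not given in the sources used here. Of 61625 spots, control spots were left out, and signals of repeated probes were averaged to 60305 probes. Log2 signal was scaled to each array's 75th percentile. A probe was tested if every array of some tissue, 6 of 6, measured it well above background and no outlier was called, which left 42650 probes. Gene names came from the array files, matched without regard to case, and from RefSeq tables (52.1% of tested probes were named). A gene with several probes was taken from the one with the highest mean. limma 3.58.1 in R 4.3.3 was fitted to all 24 arrays with tissue as the term, and calls in the 6 comparisons needed 2-fold besides an adjusted p under 0.05. The model was tested on simulated data. The genes named are all 9 members, the listed complement genes and cell markers, and the 3 nearest profiles of each member, of which C3 has 2 printed. Some items, 1 listed gene and 1 probe sequence among them, are counted or measured but not reported here. The members and lists were chosen with earlier results of these data known.

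The animal number in the labels pairs the tissues. After tissue means were removed, arrays of the same animal correlated with a mean r of 0.17 over 36 pairs (lowest -0.021), and arrays of different animals with one of -0.034 over 180 pairs. The number of arrays limits the precision. Alternatives were other scalings, background correction, the authors' table, probe filters, the dimmest probe of a gene, animal or slide as a block, array weights, a stricter call, and leaving out each animal or the Peyer array of animal 71.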

Additional observations from a re-analysis of the deposited data

Results flagged for a closer look

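The C3 level in the Liver of animal 68 was 7.45, set apart from the other Liver arrays, which held 8.22 to 8.5. Its gap to the nearest array was 0.736 of the whole range, above Dixon's critical value for a set of that size. It was the only such case among 36 sets of 6 arrays, where chance gives about 1 in 20, so the count is not above chance. The other 5 probes of C3 also had their lowest Liver value in animal 68, but they read the same RNA and Dixon's rule was not applied to them. The pair of identical probes gave 7.84 and 7.85 there, against 8.08 to 8.5 and 8.13 to 8.58 in the other Liver arrays. The same array was also the lowest of the 6 Liver arrays for C1QA at 3.97, C1QB at 4.72, C1QC at 3.08, C5 at 6.31 and CFP at 3.19, and its macrophage marker mean of 1.59 was the lowest in Liver.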

How the results depend on the processing

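Of 1044 member differences recomputed under 20 alternatives, 14 gained a call, 31 lost it, 8 reversed and 991 kept their side of the threshold. Among the 991, 12 turned sign with no call in either setting, all of them C7 in Liver or Spleen minus Jejunum, or C1QA, C1QB or CFP in Peyer minus Jejunum. In Liver against Spleen the 8 called genes held in 160 of 160. The count of members called there was 8 with and without the replicate block for animal, and the replicate block changed no member's call in any comparison. The 8 reversals were those of C1q on the authors' table, namely -1.68 (C1QA), -1.56 (C1QB) and -1.53 (C1QC) for Liver minus Peyer and -1.17, -1.46 and -1.14 for Liver minus Jejunum, and those of the dimmest C1QB probe, -0.02 and -0.07 for the same comparisons. The strand of that probe was not checked against a transcript, so its values may not be those of C1QB mRNA. The cause of the reversals was not tested. Members called in Spleen against Peyer were 5 on the authors' table. Of all named genes 405 were higher and 776 lower on it, against 1573 and 1117 in the scaling used. In Peyer against Jejunum 1 member was called with median scaling and 4 without the Peyer array of animal 71 alone. When each animal was left out in turn 2 to 4 were called (4 without animal 71). At adjusted p under 0.01 and 4-fold (limma) 0 were called, against 2. Named genes higher and lower were 148 and 36 at that rule, against 631 and 775. They were 840 and 477 with median scaling. At that stricter rule Liver against Jejunum had 3 members called, against 6, with 825 named genes higher and 835 lower, against 1715 and 1850. Leaving out each animal gave 4 to 7 there, with 4 without animal 70 where C1QB was 0.88 and C1QC 0.99. Other single calls moved when 1 animal was left out: C1QB in Liver minus Peyer was 0.98 without animal 75, C1QA in Liver minus Jejunum 1.1 without animal 68, C7 in Peyer minus Jejunum -1.09 without animal 68, and C7 in Spleen minus Jejunum 1.05 without animal 70. The largest shift of the median of all genes by scaling was -0.27, in Spleen minus Peyer with median scaling. The percentage of calls that were higher moved past 10 points in 4 comparisons: Liver against Peyer (63.4 with normexp, 52.7 in the scaling used), Liver against Jejunum (58.4 on the authors' table, 48.1 in the scaling used), Spleen against Peyer (40.5 with median scaling and 34.3 on the authors' table, 58.5 in the scaling used) and Peyer against Jejunum (63.8 with median scaling, 55.5 with quantile normalization and 56.5 on the authors' table, 44.9 in the scaling used). Among the other complement genes the authors' table gave 2 higher and 20 lower in Spleen against Peyer, where the scanner signals gave 9 and 10. In limma's animal test no member passed under any alternative run, with adjusted p between 0.19 and 0.91.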
